A study of Danio rerio with 16 samples.

Results

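The genes described here encode the machinery that acidifies the lysosome and the proteases that work inside it: the vacuolar proton pump (V-ATPase) and the cathepsins. They were taken by symbol from a gene-level count table of zebrafish larval liver, as every row whose name begins with cts and a further letter, or with atp6v or atp6ap. This gave 47 of 32058 rows, of which 20 were cathepsins and 27 were V-ATPase subunits or accessory proteins. The 47 rows carried 44 symbols, because ctslb stood on 4 rows.

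The V-ATPase is a rotary pump with a cytosolic V1 sector, which hydrolyses ATP, and a membrane V0 sector, through which protons pass into the lumen of lysosomes, endosomes and secretory vesicles. Low luminal pH activates most cathepsins, which are made as inactive precursors and degrade proteins delivered by endocytosis or autophagy. In mammalian cells the V-ATPase is also part of the platform on the lysosome surface where the growth-controlling kinase complex mTORC1 senses amino acids, and transcription factors of the TFEB family raise lysosomal genes when that complex is inactive. In the liver, lysosomes of hepatocytes break down endocytosed and autophagic material, and resident macrophages hold many further lysosomes.

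RNA was sequenced from dissected livers, with 30 larvae pooled per library and 2 libraries in each of 8 groups. Wild-type larvae were taken under the treatment label "Normal" at 4 and 5 days post fertilization (dpf), fasted at 6 dpf, fasted at 6 dpf with ethanol, fasted at 7 dpf, fed at 7 dpf, and fed at 7 dpf under the sample name "ventral". A further fasted group at 6 dpf carried Tg(fabp10a:GCaMP6s), a calcium reporter driven by a promoter active in hepatocytes. The labels state neither the wild-type strain, the ethanol dose and duration and the diet, nor what "ventral" denotes. The labels do not say whether the libraries of a group came from separate clutches, so p-values measure the spread between pools, which may be technical. With 2 against 2 libraries an exact permutation test cannot give a p below 0.333, so the tests reported are those of a model fitted across all genes. For the same reason, libraries that do not overlap between groups are described for single genes and are not a test. Libraries held 18995692 to 28033476 counts, and replicates correlated at r of 0.957 to 0.976 across genes. The 17 hepatocyte markers were above 0 in every library and summed to 6.26% to 14.6% of all counts. The row for EGFP, a sequence from which the GCaMP reporter is partly built, held 136106 and 43968 counts in the GCaMP libraries, 38 in each wild-type fasted library at 6 dpf and 0 in all others.

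Of the 47 rows, 39 passed the filter on low counts and were tested, 14 of them cathepsins and 25 V-ATPase genes. The V-ATPase genes tested were 13 of the V1 sector, 9 of the V0 sector and 3 accessory proteins. The 4 ctslb rows, named for a protease of the zebrafish hatching gland, had 0 counts in all 16 libraries, as did ctsll. Reads that match near-identical copies equally well may have been left uncounted, so a count of 0 for ctslb is uncertain. The other untested members were ctss1 with 34 counts over all libraries, atp6ap1lb with 15, of which 14 came from the ethanol libraries, and atp6ap1la with 2. Among tested genes, ctsbb, atp6v1c2, atp6ap1a, atp6v0a2a and atp6v0a1b had under 10 counts in both libraries of at least 1 group, and their calls rest on few reads.

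Levels are given as CPM, counts scaled to a common library total after correction for library composition, and differences as log2 fold changes ± standard error. A gene is said to rise or fall where edgeR's quasi-likelihood test gave a Benjamini-Hochberg adjusted p under 0.1 over 17799 genes together with a change of at least 2-fold. In bulk tissue, fewer cells of a type and less RNA per cell cannot be told apart. Levels were not divided by transcript length, so they are compared between groups and not between genes. Paired symbols ending in a and b, such as atp6v1aa and atp6v1ab, name duplicated genes of related sequence, and the counting could divide reads between such copies unevenly.

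The V-ATPase rows together took 0.0773% and 0.0745% of all counts at 4 dpf, 0.0442% and 0.0411% at 5 dpf, and 0.0353% and 0.0325% in fasted wild type at 6 dpf. They took 0.0332% and 0.0331% in fasted larvae at 7 dpf, against 0.0791% and 0.0780% in fed larvae and 0.0765% and 0.0758% in the ventral libraries. With ethanol the share was 0.0916% and 0.0871%. The fed, ventral, ethanol and 4 dpf libraries all lay above the 5 dpf libraries, and every fasted library without ethanol lay below them. The cathepsin rows followed another order, with 0.194% and 0.222% in the ethanol libraries and 0.0767% to 0.0896% in the other 14 libraries. That order rested on ctsla, a homologue of the endopeptidase cathepsin L. Without ctsla the cathepsins were highest in the fed libraries, at 0.0604% and 0.0627%, and took 0.0449% and 0.0420% with ethanol.

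**Figure D1:**
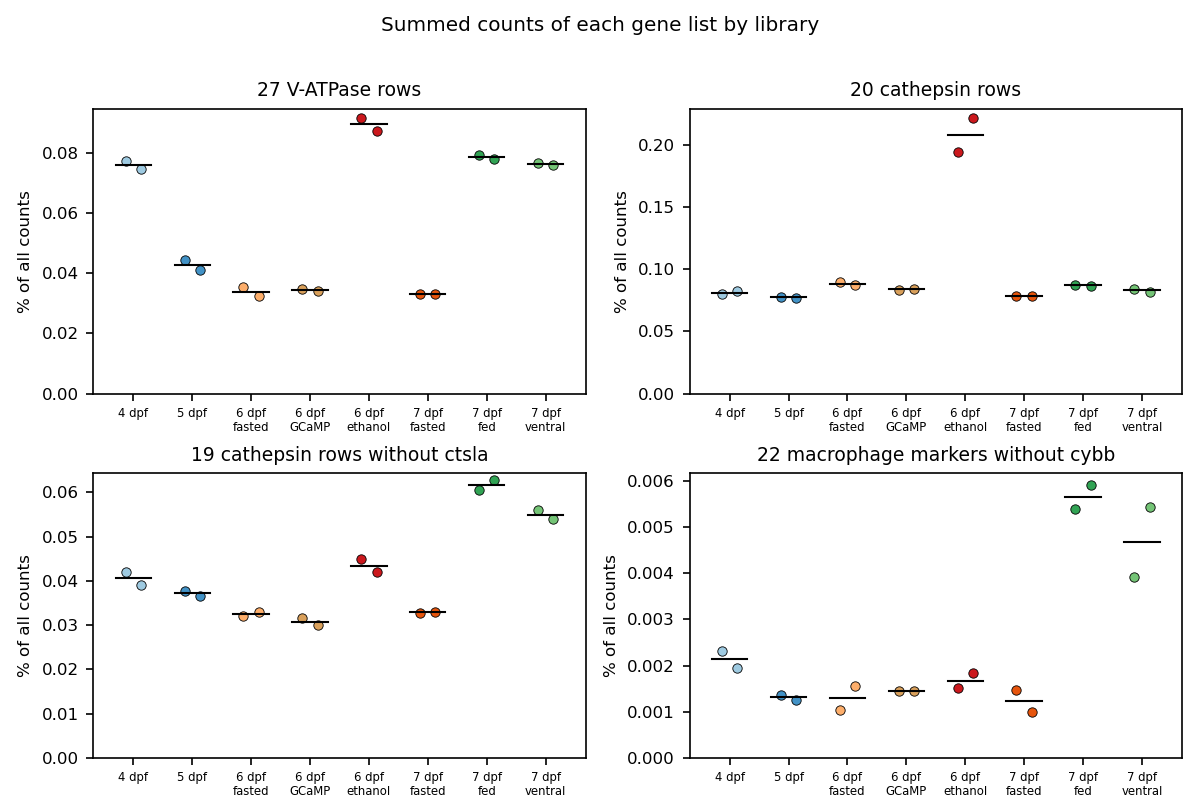
Summed raw counts of the V-ATPase rows, the cathepsin rows, the cathepsin rows without ctsla and the macrophage markers without cybb, each as a percentage of all counts (vertical axes, starting at 0) in the 8 groups (horizontal axes). Points are libraries and lines are group means. The V-ATPase share is 0.0331% and 0.0332% in fasted and 0.0780% and 0.0791% in fed larvae at 7 dpf, and the cathepsin share is highest with ethanol, at 0.194% and 0.222%.

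**Figure D2:**
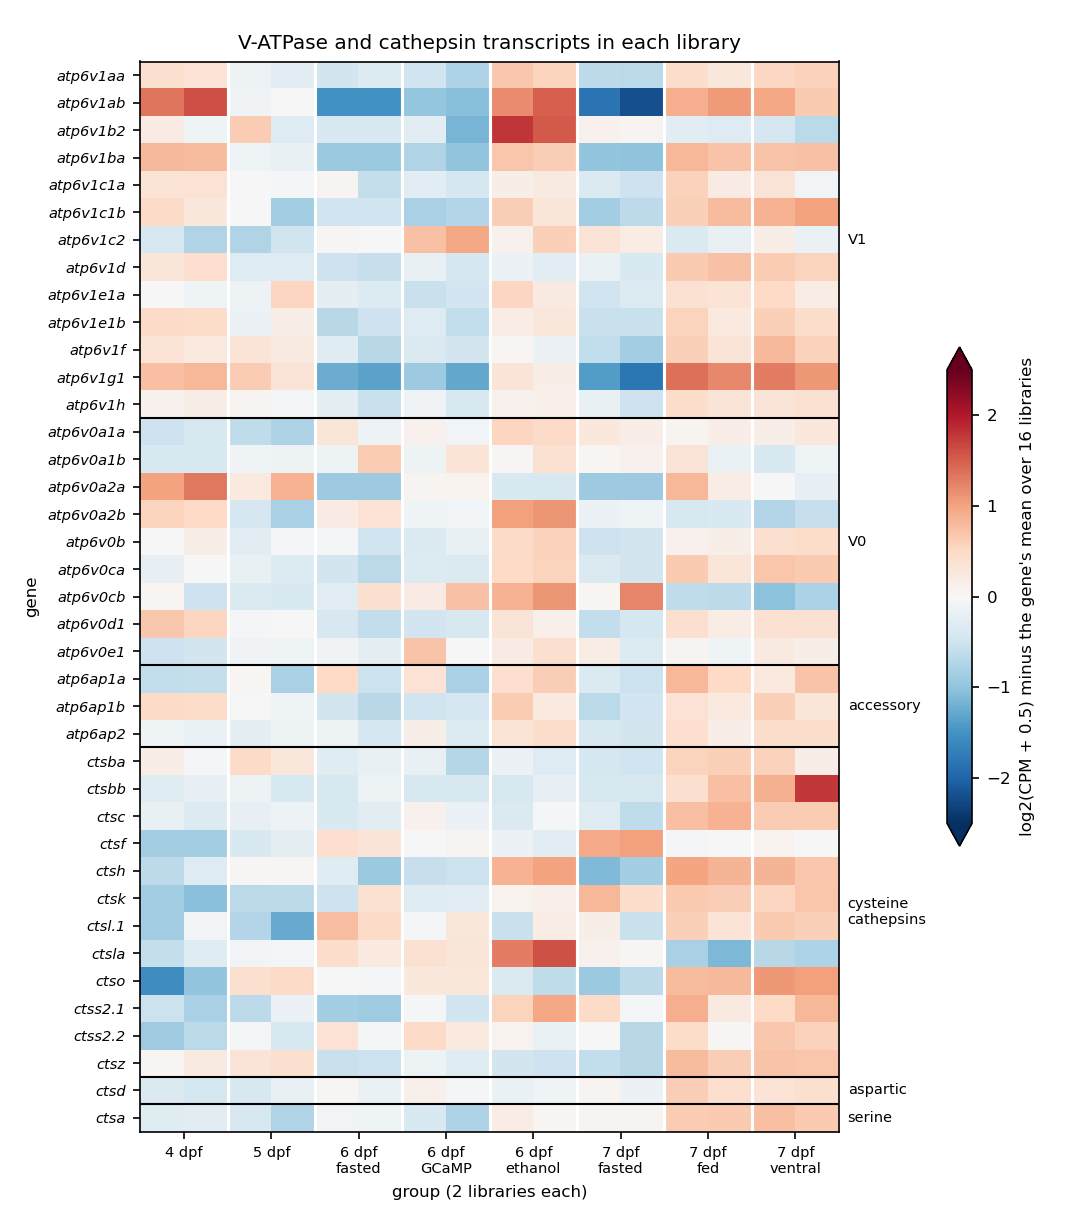
Level of each of the 39 tested genes in each of the 16 libraries, as log2(CPM + 0.5) minus the gene's own mean over all libraries (colour scale, red above the mean and blue below), with genes in rows by role and libraries in columns by group. The V1 genes atp6v1ab, atp6v1ba and atp6v1g1 are red at 4 dpf, with ethanol, when fed and in ventral, and blue in the fasted libraries without ethanol, whereas ctsla is red with ethanol and blue at 4 dpf, when fed and in ventral.

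The fed group at 7 dpf was compared with the fasted group of the same age to ask how feeding state related to these genes. Most pump genes that rose belonged to the V1 sector. Of 25 V-ATPase genes, 7 (28%) rose and 1 (4.00%) fell, where 20.7% of all genes tested rose and 16.8% fell. The V1 sector held 6 of the genes that rose, out of 13 tested (46.2%), and none that fell. At an adjusted p under 0.1 with no fold limit, 17 of 25 V-ATPase genes (68.0%) were higher and 1 was lower, where 29.9% of all genes were higher and 27.5% lower. The median log2 difference of the 25 genes was 0.86. Without the 4 V-ATPase genes of fewest reads, 6 of 21 rose and 1 fell. The same median over all genes was within 0.1 of 0 in this and every other comparison.

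The V1 gene with the largest rise was atp6v1ab, which encodes a catalytic A subunit, the site of ATP hydrolysis. Its level was 2.75 and 2.05 CPM in the fasted libraries and 21.3 and 23.8 CPM in the fed libraries. Both fed libraries lay far above both fasted libraries, a log2 difference of 3.23 ± 0.20 (adjusted p = 1.36e-10, edgeR). The duplicate atp6v1aa changed less, from 16.9 and 16.6 CPM to 36.3 and 32.8 CPM, a log2 difference of 1.04 ± 0.13 (adjusted p = 1.34e-06, edgeR). The G subunit gene atp6v1g1, part of the stalks that hold the V1 head in place, had 20.02 and 15.0 CPM when fasted and 141 and 124 CPM when fed. Its groups did not overlap, and the log2 difference was 2.92 ± 0.17 (adjusted p = 5.03e-11, edgeR). The B subunit gene atp6v1ba, whose product alternates with the A subunit in the head, had 19.3 and 19.1 CPM when fasted and 69.3 and 64.1 CPM when fed, a log2 difference of 1.80 ± 0.12. A further stalk gene, atp6v1c1b, had 1.15 and 1.44 CPM when fasted and 4.10 and 4.72 CPM when fed, a log2 difference of 1.77 ± 0.36. The rotor gene atp6v1f rose with a log2 difference of 1.25 ± 0.18. Several V1 genes passed the adjusted p and stopped just short of 2-fold, for example atp6v1e1b at 0.98 ± 0.15 and atp6v1d at 0.97 ± 0.12 on the log2 scale. The second B subunit gene, atp6v1b2, did not pass the test, with 1.51 and 1.44 CPM when fasted and 1.05 and 0.976 CPM when fed.

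Of 9 V0 genes 1 rose and 1 fell, and none of the 3 accessory genes was called. The proteolipid gene atp6v0ca, which encodes the ring subunit that carries protons, had 70.3 and 65.6 CPM when fasted and 141 and 110 CPM when fed, a log2 difference of 0.89 ± 0.13 that passed the adjusted p (1.23e-05, edgeR) and not the fold limit. Its duplicate atp6v0cb fell, from 1.51 and 4.00 CPM to 0.736 and 0.732 CPM, a log2 difference of -1.89 ± 0.52. The higher fasted library carried much of that difference: without 7 dpf fasted replicate 2 it was -1.03, which no longer passed the test. The a subunit gene atp6v0a2a, which encodes part of the proton channel, had 0 counts in both fasted libraries and 22 and 14 counts in the fed libraries. This is at least 11.6-fold higher against a floor of 3 counts over the fasted group, with an adjusted p of 3.45e-04 (edgeR). The d subunit gene atp6v0d1 and the accessory genes atp6ap1b and atp6ap2 differed by 0.84 ± 0.13, 0.91 ± 0.16 and 0.74 ± 0.16 on the log2 scale, all under 2-fold. The a1-type gene atp6v0a1a differed by -0.10 ± 0.13 and the small subunit gene atp6v0e1 by 0.03 ± 0.21, neither passing the test.

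**Figure D3:**
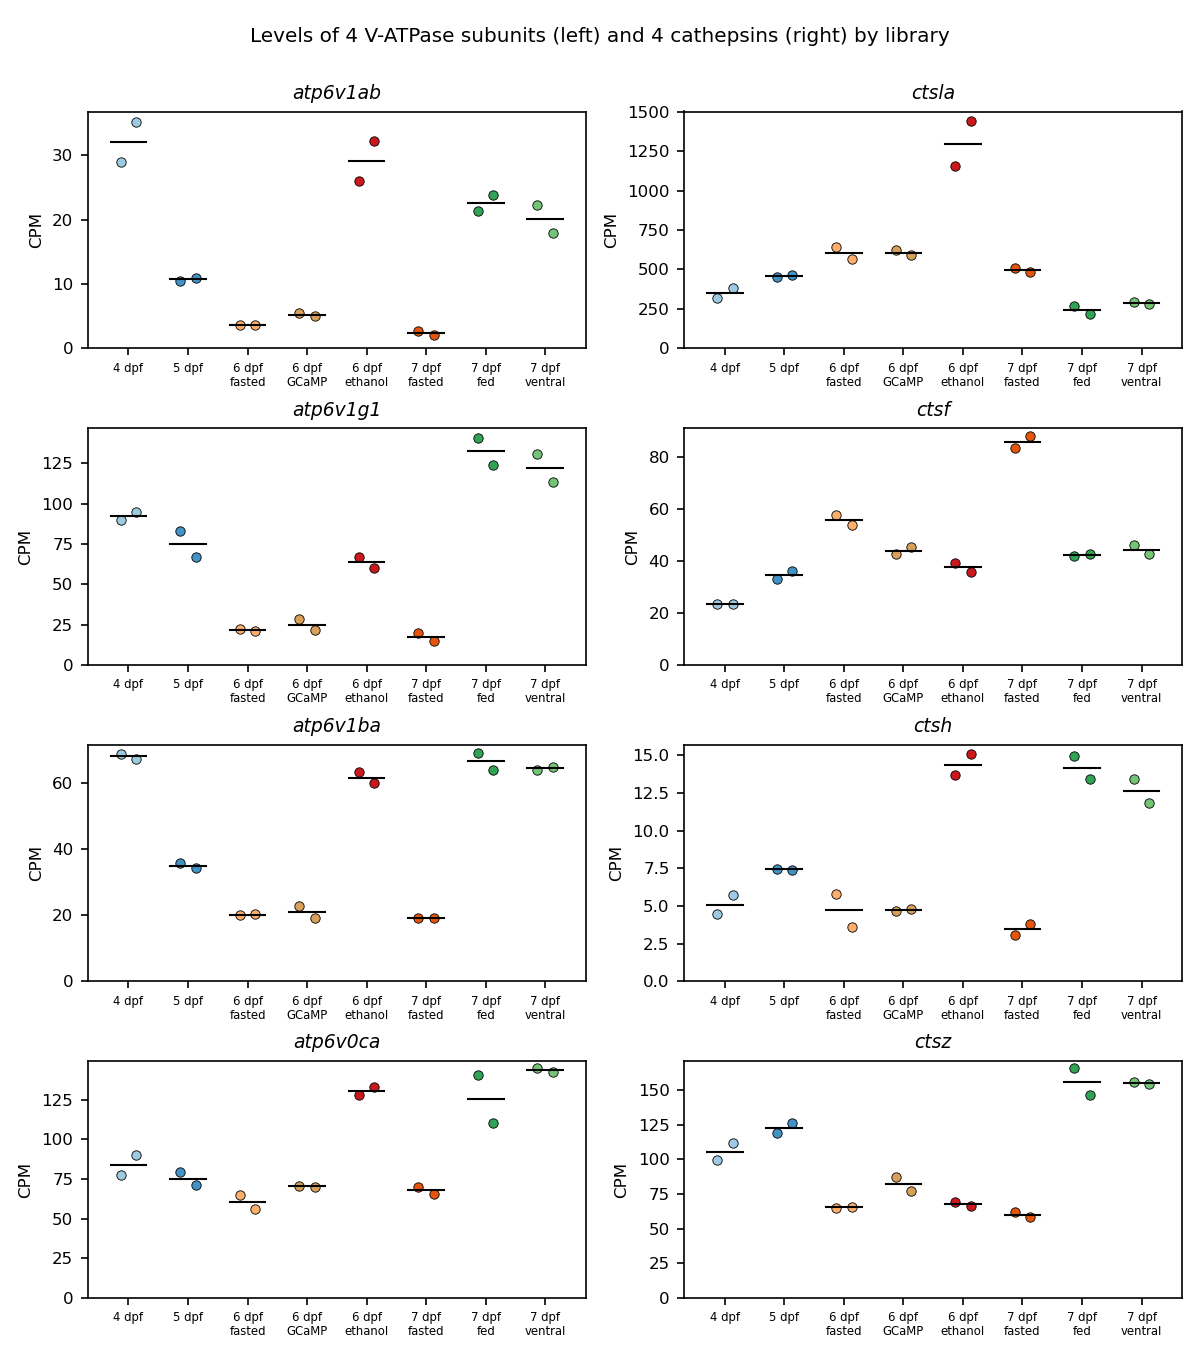
CPM (vertical axes, starting at 0) of 4 V-ATPase subunit genes on the left and 4 cathepsin genes on the right in every library of the 8 groups (horizontal axes), with points for libraries and lines for group means. The genes atp6v1ab and atp6v1ba are low in every fasted library without ethanol, ctsla reaches 1154 and 1440 CPM with ethanol, and ctsf is highest in fasted larvae at 7 dpf.

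More cathepsins rose than fell in fed larvae, and the share that fell was near that of all genes. Of 14 tested, 6 (42.9%) rose and 2 (14.3%) fell, where 20.7% of all genes rose and 16.8% fell, and the median log2 difference was 0.69. Without ctsbb, the cathepsin of fewest reads, 5 of 13 rose and 2 fell, and the median was 0.64. The aminopeptidase gene ctsh had 3.10 and 3.79 CPM when fasted and 14.9 and 13.4 CPM when fed, a log2 difference of 2.04 ± 0.23 (adjusted p = 4.96e-07, edgeR). The cysteine protease gene ctso rose from 7.17 and 8.72 CPM to 24.6 and 25.0 CPM, a log2 difference of 1.64 ± 0.18. In both genes the fed libraries lay clear of the fasted ones. The carboxypeptidase gene ctsz rose from 61.8 and 58.4 CPM to 166 and 146 CPM, a log2 difference of 1.37 ± 0.11 (adjusted p = 8.40e-09, edgeR). The dipeptidyl peptidase gene ctsc rose from 9.83 and 7.69 CPM to 20.8 and 22.5 CPM. The cathepsin B gene ctsba rose by 1.04 ± 0.16 on the log2 scale, from 77.9 and 75.4 CPM to 156 and 160 CPM. The duplicate ctsbb had 0 counts when fasted and 7 and 15 when fed, at least 7.08-fold higher against a floor of 3 counts over the fasted group. It passed the filter on low counts only through the fed and ventral libraries, where it was high. Its call is thus not independent of that filter and is not taken as support. The untested ctss1 likewise had 0 counts when fasted, with 4 and 6 when fed.

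Cathepsins ctsla and ctsf went the other way. The level of ctsla was 509 and 487 CPM when fasted and 270 and 219 CPM when fed, a log2 difference of -1.03 ± 0.14 (adjusted p = 3.76e-06, edgeR). Its share of all cathepsin counts was 58.0% and 58.3% when fasted and 30.9% and 27.8% when fed, uncorrected for transcript length. The level of ctsf was 83.3 and 87.7 CPM when fasted and 41.9 and 42.7 CPM when fed, a log2 difference of -1.02 ± 0.11 (adjusted p = 2.88e-07, edgeR). Both changes lay near the 2-fold limit: leaving out 7 dpf fasted replicate 1 or fed replicate 2 took ctsla to -0.99 and -0.88, and leaving out fasted replicate 2 or fed replicate 1 took ctsf to -0.97 and -0.96. Scaling by library size alone gave -0.84 for ctsla and -0.82 for ctsf. The aspartic protease gene ctsd and the serine carboxypeptidase gene ctsa differed by 0.56 ± 0.12 and 0.59 ± 0.15 on the log2 scale, passing the adjusted p and not the fold limit. The gene ctsk, for the collagen-degrading protease of mammalian osteoclasts, did not pass the test, and its groups overlapped, with 7.71 and 5.74 CPM when fasted and 6.83 and 6.59 CPM when fed.

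Other lysosomal genes, from lists chosen with earlier results of these data known, are given by their counts, where 20.7% of all genes rose and 16.8% fell in fed larvae. Among acid hydrolases 10 of 45 rose and 3 fell, with a median log2 difference of 0.48; the phosphatase gene acp5b rose by 4.74 ± 0.46, the galactosidase gene gla by 2.34 ± 0.24 and the glucosidase gene gaa by 2.32 ± 0.65 on the log2 scale, whereas acp2 fell, with a log2 difference of -2.02 ± 0.14. Among genes of the lysosomal membrane 4 of 36 rose and 7 fell. The sialic acid carrier gene slc17a5 fell from 158 to 16.1 CPM on average, a log2 difference of -3.29 ± 0.14, and scarb2a, whose human homologue carries glucocerebrosidase to the lysosome, rose by 1.57 ± 0.14. Among genes that sort cargo to the lysosome 7 of 31 rose and 1 fell, with gga3b at 2.11 ± 0.51 and ap1s1 at 1.66 ± 0.14. Among genes of the TFEB family and of mTORC1 docking 2 of 27 rose and 7 fell. These included the mTORC1 inhibitor gene sesn1 at -2.66 ± 0.17, flcn at -1.90 ± 0.25 and the Rag GTPase gene rragca at 1.74 ± 0.13. Among V-ATPase assembly and regulation genes 2 of 11 rose, tbc1d24 by 4.06 ± 0.30 and the assembly factor vma21 by 1.08 ± 0.18, and 1 fell. The cathepsin inhibitor cst3, a cystatin, fell from 338 to 86.7 CPM on average, a log2 difference of -1.96 ± 0.13, and of the 4 inhibitors tested 1 other rose.

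Markers of other cells are given in the same way, where 20.7% of all genes rose and 16.8% fell in fed larvae. Of 20 macrophage markers tested, 12 rose and none fell, with a median log2 difference of 2.22. The most abundant over all 16 libraries, those with ethanol included, were cybb at 1.40 ± 0.32 and lcp1 at 2.60 ± 0.50. In fed larvae cybb was a small part of the marker sum, which was 0.00538% and 0.00592% of counts without it. The 23 markers summed to 0.00158% and 0.00111% of counts when fasted, with 4 and 6 of them at 0, and to 0.00582% and 0.00619% when fed, with 3 and 1 at 0. Of 14 markers of ionocytes, skin cells of which some are rich in V-ATPase, none rose and rhcga fell. Their sum was 0.00315% and 0.00404% when fasted and 0.00364% and 0.00425% when fed. On average rhcga went from 7.53 to 0.337 CPM, and ca2, the most abundant and not called, from 12.7 to 24.0 CPM. Red blood cell markers rose in 15 of 15 tested, and 19 of 24 endothelial, 11 of 22 skin and 6 of 18 exocrine pancreas markers fell. Intestine markers rose in 7 and fell in 1 of 22, and summed to 0.0972% and 0.102% of counts when fasted and 0.314% and 0.390% when fed. Hepatocyte markers rose in 4 and fell in 1 of 17, with a median log2 difference of 0.26. They summed to 6.51% and 6.26% of counts when fasted and 14.6% and 13.7% when fed. The 2 most abundant, tfa and apoa2, went from 7896 to 43034 CPM and from 10346 to 29350 CPM on average. The part of all these cell types in the V-ATPase and cathepsin differences was not tested.

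Ethanol-treated larvae at 6 dpf were compared with untreated fasted larvae of the same age. Of 25 V-ATPase genes 10 (40.0%) rose and none fell, where 11.8% of all genes rose and 11.1% fell. Those that rose were 6 of the V1 sector, 3 of the V0 sector and 1 accessory protein. At an adjusted p under 0.1 with no fold limit, 21 of 25 (84.0%) were higher and none lower, where 22.9% of all genes were higher and 21.5% lower. The median log2 difference of the 25 genes was 0.80. Without the 4 V-ATPase genes of fewest reads, 9 of 21 rose.

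The largest difference among V1 genes was again in the catalytic gene atp6v1ab, at 3.58 and 3.58 CPM without ethanol and 26.0 and 32.2 CPM with it. The ethanol libraries lay well above both controls, a log2 difference of 3.02 ± 0.19 (adjusted p = 8.98e-10, edgeR). The B subunit gene atp6v1b2, which did not pass the test with feeding, rose from 0.919 and 0.921 CPM to 5.90 and 4.85 CPM, a log2 difference of 2.54 ± 0.50 (adjusted p = 5.10e-04, edgeR). The other B subunit gene, atp6v1ba, rose from 20.1 and 20.4 CPM to 63.4 and 60.2 CPM, a log2 difference of 1.61 ± 0.11. The stalk gene atp6v1g1 rose from 22.2 and 20.9 CPM to 66.9 and 60.4 CPM, a log2 difference of 1.56 ± 0.16. None of these genes overlapped between groups. The genes atp6v1c1b and atp6v1aa rose by 1.16 ± 0.35 and 1.03 ± 0.13 on the log2 scale. Each dropped to 0.98, under 2-fold, without ethanol replicate 1, and atp6v1aa did so also without 6 dpf fasted replicate 1. The rotor genes atp6v1f and atp6v1d differed by 0.46 ± 0.17 and 0.33 ± 0.13, under 2-fold.

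In the V0 sector atp6v0ca, for the proton-carrying ring, had 65.0 and 55.8 CPM without ethanol and 128 and 133 CPM with it, a log2 difference of 1.11 ± 0.13 (adjusted p = 1.88e-06, edgeR). Its duplicate atp6v0cb rose from 1.102 and 2.05 CPM to 3.03 and 3.66 CPM, a log2 difference of 1.09 ± 0.49 with an adjusted p of 0.0881 (edgeR), which DESeq2 did not call and which was lost without either ethanol library or without control replicate 1. The gene atp6v0a2a had 0 counts in both controls and 8 and 6 with ethanol, at least 2.98-fold higher against a floor of 3 counts over the control group. Its ethanol libraries stood at 0.220 and 0.211 CPM, below the fasted GCaMP libraries without ethanol, at 0.477 and 0.494 CPM. The accessory gene atp6ap1b rose from 13.0 and 10.8 CPM to 28.2 and 21.1 CPM, a log2 difference of 1.05 ± 0.16, which was 0.94 without control replicate 2 and 0.84 without ethanol replicate 1. Because the controls here shared their age with the GCaMP group, the comparison was repeated against wild type and GCaMP together. In that fit 6 V-ATPase genes rose, all of the V1 sector, with atp6v0ca at 0.998 and atp6ap1b at 0.996 on the log2 scale, just under the 2-fold limit. Of all 17799 genes tested, 4297 were called in that fit, 52.2% of them higher.

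Among cathepsins 3 of 14 (21.4%) rose with ethanol and none fell, where 11.8% of all genes rose and 11.1% fell. At an adjusted p under 0.1 with no fold limit, 3 of 14 (21.4%) were higher and 3 (21.4%) lower. Those shares were near the 22.9% of all genes that were higher and the 21.5% that were lower. The median log2 difference of the 14 genes was 0.04. The level of ctsla was 641 and 566 CPM without ethanol and 1154 and 1440 CPM with it, higher than in any other library. The log2 difference was 1.1 ± 0.14 (adjusted p = 3.50e-06, edgeR), and 0.96 without ethanol replicate 2, just under 2-fold. Its share of all cathepsin counts was 62.0% to 64.3% in the controls, against 76.9% and 81.1% in the ethanol libraries. The level of ctss2.1, related to mammalian cathepsin S of antigen-presenting cells, rose from 0.643 and 0.614 CPM to 2.53 and 3.55 CPM, a log2 difference of 2.26 ± 0.47 (adjusted p = 8.90e-04, edgeR). The aminopeptidase gene ctsh rose from 5.83 and 3.58 CPM to 13.7 and 15.1 CPM, a log2 difference of 1.61 ± 0.22. The genes ctsba, ctsc, ctsd and ctsz differed by 0.02 ± 0.16, 0.14 ± 0.17, -0.08 ± 0.12 and 0.06 ± 0.11 on the log2 scale and did not pass the test. The genes ctsf and ctso were lower by less than 2-fold, at -0.57 ± 0.11 and -0.51 ± 0.18.

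Of the other lysosomal genes, 6 of 45 acid hydrolases rose with ethanol and 2 fell, where 11.8% of all genes rose and 11.1% fell, with hyal2a at 2.86 ± 0.42 and dnase2 at 1.99 ± 0.29 on the log2 scale. Among membrane genes 8 of 36 rose and 1 fell. The tetraspanin gene cd63 rose from 33.2 to 156 CPM on average, a log2 difference of 2.23 ± 0.19, and laptm4b by 1.67 ± 0.27. In the sorting list 4 of 31 rose and none fell, with rab7b at 2.67 ± 0.24. In the TFEB and mTORC1 list 1 of 27 rose, rragca at 1.39 ± 0.13, and 4 fell. The assembly list had 1 of 11 that rose and 2 that fell, and of the 4 cystatins cst3 fell, from 277 to 103 CPM on average.

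Of 20 macrophage markers 4 rose with ethanol and 1 fell, where 11.8% of all genes rose and 11.1% fell. The median log2 difference of these markers was 0.05. Most of their summed change came from cybb, a subunit of the superoxide-producing NADPH oxidase, which went from 0.286 to 42.7 CPM on average. Without cybb the other 22 markers summed to 0.00104% and 0.00155% of counts in the controls, with 7 and 7 at 0, and to 0.00152% and 0.00183% with ethanol, with 4 and 3 at 0. Of 14 ionocyte markers ca2 rose, and their sum was 0.00900% and 0.0110% without and 0.0219% and 0.00938% with ethanol. Hepatocyte markers rose in 2 and fell in 10 of 17, and summed to 8.21% and 8.03% of counts without and 7.61% and 6.68% with ethanol. Skin markers fell in 15 of 22, exocrine pancreas markers in 16 of 18 and intestine markers in 8 of 22, and 4 of 24 endothelial markers rose. The part of these cell markers in the V-ATPase and cathepsin differences was not tested.

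**Figure D4:**
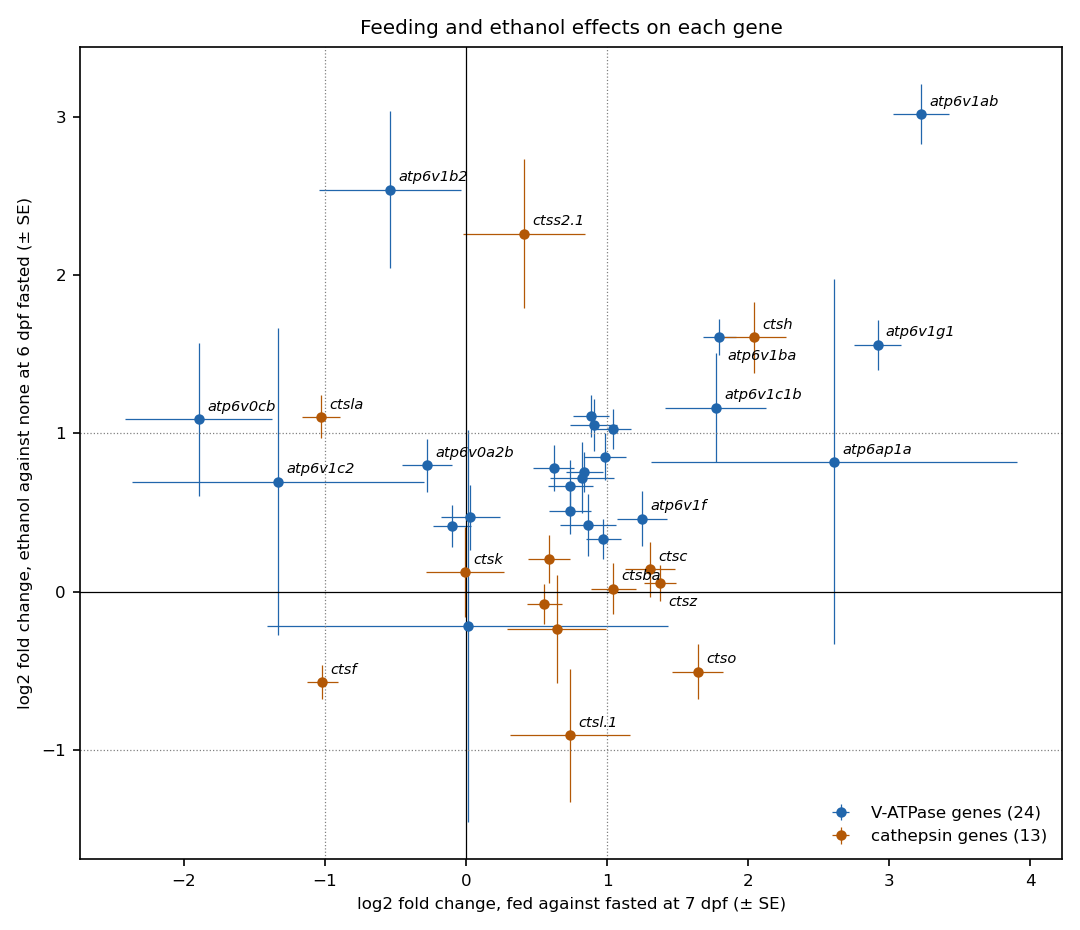
Log2 fold change of each gene with ethanol at 6 dpf (vertical axis) against that with feeding at 7 dpf (horizontal axis), with standard errors as bars, for 24 V-ATPase and 13 cathepsin genes; dotted lines mark 2-fold changes. The genes atp6v0a2a and ctsbb, at 0 counts in a control group, are not drawn. The gene atp6v1ab lies at 3.23 and 3.02, and ctsla at -1.03 and 1.1.

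Feeding and ethanol were measured against separate control groups, so the difference between the 2 effects could be tested directly. That contrast was added after the data had been seen, and it also holds the day between the ages. Of the V-ATPase genes, 6 rose in both comparisons, 85.7% of those that rose with feeding and 60.0% of those that rose with ethanol. They were atp6v1aa, atp6v1ab, atp6v1ba, atp6v1c1b, atp6v1g1 and atp6v0a2a. The ethanol call on atp6v0a2a was lost when GCaMP was added to the control. Of the cathepsins, ctsh rose in both, 16.7% of those that rose with feeding and 33.3% of those that rose with ethanol. Over all genes tested, those that rose in both were 27.4% of those that rose with feeding and 47.9% of those that rose with ethanol. In the test of the difference, 3 of 25 V-ATPase genes had a higher effect with ethanol and 1 a lower effect, where 14.6% of all genes had a higher and 16.5% a lower effect. The effects on atp6v1aa, atp6v1ab and atp6v1ba differed by -0.02 ± 0.18, -0.21 ± 0.27 and -0.19 ± 0.16 on the log2 scale, none passing the test. Those with a higher effect were atp6v1b2, by 3.08 ± 0.70, atp6v0cb, by 2.98 ± 0.71, and atp6v0a2b, by 1.07 ± 0.24, and atp6v1g1 had a lower effect, by -1.36 ± 0.22 (adjusted p = 8.42e-05, edgeR).

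Of 14 cathepsins tested, 2 had a higher and 6 a lower effect with ethanol than with feeding, where 14.6% of all genes had a higher and 16.5% a lower effect. The effect on ctsla was 2.13 ± 0.19 higher with ethanol on the log2 scale (adjusted p = 7.26e-08, edgeR), and that on ctss2.1 was 1.85 ± 0.64 higher. Those with a lower effect included ctso by -2.15 ± 0.25 (adjusted p = 1.89e-06, edgeR), ctsl.1 by -1.65 ± 0.60 and ctsz by -1.32 ± 0.16 (adjusted p = 2.77e-06, edgeR). They also included ctsc by -1.16 ± 0.25 and ctsba by -1.03 ± 0.23. The last was ctsbb, which rests on few reads and passed the filter only through the fed and ventral libraries, so it is not taken as support. The effect on ctsh differed by -0.43 ± 0.32 and did not pass the test. Some of these calls depended on single libraries. That on ctss2.1 was lost without ethanol replicate 2 (1.58), 7 dpf fasted replicate 1 (1.496) or fed replicate 2 (1.49), and that on ctsl.1 without 6 dpf fasted replicate 1 (-1.48), ethanol replicate 1 (-1.28) or 7 dpf fasted replicate 2 (-1.28). The difference for ctsba came to -0.97 without 6 dpf fasted replicate 2 and -0.96 without ethanol replicate 2, that for ctsc to -0.999 without 7 dpf fasted replicate 2, and that for atp6v0a2b to 0.99 without 6 dpf fasted replicate 1. The call on ctsbb was lost without 6 dpf fasted replicate 2, ethanol replicate 1, or any of the fasted and fed libraries at 7 dpf.

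Fasted larvae at 7 dpf were also compared with larvae at 4 dpf, a contrast in which age and fasting cannot be told apart and which shares its fasted libraries with the feeding comparison. Of 25 V-ATPase genes 3 (12%) rose and 10 (40.0%) fell, where 18.7% of all genes rose and 20.3% fell. The V1 sector held 7 of the genes that fell. At an adjusted p under 0.1 with no fold limit, 5 of 25 were higher and 16 (64.0%) lower, where 28.6% of all genes were higher and 30.4% lower. The median log2 difference was -0.63. Without the 4 V-ATPase genes of fewest reads, 1 of 21 rose and 9 fell.

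The catalytic gene atp6v1ab had 29.0 and 35.2 CPM at 4 dpf, against 2.75 and 2.05 CPM in fasted larvae at 7 dpf, a log2 difference of -3.73 ± 0.20 (adjusted p = 1.93e-11, edgeR). The gene atp6v1g1 had 90.1 and 95.1 CPM at 4 dpf against 20.02 and 15.0 CPM, a log2 difference of -2.40 ± 0.16. The gene atp6v1ba had 69.0 and 67.4 CPM against 19.3 and 19.1 CPM, a log2 difference of -1.83 ± 0.12. In all 3 genes the groups were far apart. The genes atp6v1c1b, atp6v0d1, atp6ap1b, atp6v1f, atp6v1aa and atp6v1e1b fell with log2 differences from -1.41 ± 0.36 to -1.05 ± 0.15. Of these, atp6ap1b came to -0.98 without 7 dpf fasted replicate 1 and atp6v1f to -0.96 without replicate 2, both under 2-fold. The a subunit gene atp6v0a2a had 39 and 48 counts at 4 dpf and 0 in the fasted libraries, at least 22.4-fold lower against a floor of 3 counts over the fasted group. The 3 genes that rose were of low abundance: atp6v0cb by 1.23 ± 0.49 on the log2 scale, atp6v1c2 from 4 and 0 counts to 13 and 9, and atp6v0a1b from 0 counts in both libraries to 4 and 4. The call on atp6v0cb was lost without 4 dpf replicate 2 (0.86) or 7 dpf fasted replicate 2 (0.36). That on atp6v1c2 was lost without 4 dpf replicate 2 (1.82) or 7 dpf fasted replicate 1 (2.58), and that on atp6v0a1b without either 4 dpf library or 7 dpf fasted replicate 2.

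In counts per 100 counts of its duplicate atp6v1aa, atp6v1ab stood at 81.9 and 103 at 4 dpf, 42.9 and 49.5 at 5 dpf, 18.5 and 17.0 when fasted at 6 dpf and 16.3 and 12.3 when fasted at 7 dpf. It stood at 58.8 and 72.6 when fed and at 60.8 and 81.2 with ethanol. Fasted GCaMP larvae at 6 dpf stood at 29.1 and 32.9, above fasted wild type of that age. These ratios are uncorrected for transcript length. The order of the groups in them was that of the summed V-ATPase share only in part. Ventral, at 57.8 and 44.8, reached down into the range of 5 dpf. The ratio was highest at 4 dpf, whereas the share, uncorrected for library composition, was highest with ethanol.

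Among cathepsins 3 of 14 (21.4%) rose from 4 dpf to fasted 7 dpf, a share near the 18.7% of all genes that rose, and none fell, where 20.3% of all genes fell. The level of ctsf was higher at each later age, with 23.4 and 23.2 CPM at 4 dpf, 33.1 and 36.2 CPM at 5 dpf, 57.4 and 53.9 CPM when fasted at 6 dpf and 83.3 and 87.7 CPM when fasted at 7 dpf. No 2 of these groups overlapped, and the log2 difference from 4 to 7 dpf was 1.88 ± 0.11 (adjusted p = 1.03e-10, edgeR). The level of ctsk rose from 2.05 and 1.75 CPM to 7.71 and 5.74 CPM, a log2 difference of 1.82 ± 0.30. The level of ctss2.1 rose from 0.918 and 0.685 CPM to 2.39 and 1.54 CPM, a log2 difference of 1.29 ± 0.46, a call lost without 4 dpf replicate 2 (1.07) or 7 dpf fasted replicate 1 (0.93). The gene ctsla differed by 0.51 ± 0.14 and ctsz by -0.81 ± 0.11, both under 2-fold. Of the other lists, 3 of 45 acid hydrolases rose and 8 fell, 11 of 36 membrane genes rose and 5 fell, 2 of 31 sorting genes rose and 8 fell, 6 of 27 TFEB and mTORC1 genes rose and 3 fell, and 3 of 11 assembly genes rose and 2 fell. These counts stand beside 18.7% of all genes that rose and 20.3% that fell. The sialic acid carrier gene slc17a5 rose by 2.23 ± 0.13, sesn1 by 2.29 ± 0.17 and acp2 by 2.2 ± 0.14 on the log2 scale, and tbc1d24 fell, with a log2 difference of -4.21 ± 0.30. The cystatin gene cst3 rose from 42.7 to 338 CPM on average, a log2 difference of 2.98 ± 0.14, and 2 of 4 cystatins rose in all. Macrophage markers rose in 1 and fell in 4 of 20, and summed to 0.00254% and 0.00209% of counts at 4 dpf, with 1 and 3 at 0. Endothelial markers rose in 17 of 24, exocrine pancreas markers in 16 of 18 and skin markers in 14 of 22, and 11 of 15 red blood cell markers fell. Hepatocyte markers summed to 11.9% and 12.4% of counts at 4 dpf and fell in 2 of 17. Intestine markers rose in 5 and fell in 5 of 22, and their sum went from 0.338% and 0.329% of counts at 4 dpf to 0.0972% and 0.102%. Ionocyte markers rose in 2 and fell in 1 of 14, with a median log2 difference of 1.32. Their sum went from 0.0101% and 0.0117% to 0.00315% and 0.00404%. The marker that fell was ca2, the most abundant, from 79.6 to 12.7 CPM on average. Those that rose were rhcga, from 0.821 to 7.53 CPM, and slc12a10.2, from 0.204 to 1.32 CPM. The part of all these cell markers in the V-ATPase and cathepsin differences was not tested.

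The steps between consecutive ages share groups, and each is given by itself. From 4 to 5 dpf, 2 of 25 V-ATPase genes fell and none rose, where 7.42% of all genes fell and 7.44% rose. The catalytic gene atp6v1ab fell from 29.0 and 35.2 CPM to 10.5 and 11.01 CPM, a log2 difference of -1.58 ± 0.17 (adjusted p = 1.41e-06, edgeR). The a subunit gene atp6v0a2b fell from 14.6 and 14.05 CPM to 7.16 and 5.36 CPM, a log2 difference of -1.19 ± 0.17. The B subunit gene atp6v1ba stopped just under the fold limit, at -0.96 ± 0.11 on the log2 scale. Of 14 cathepsins, ctso rose from 4.45 and 6.85 CPM to 18.6 and 19.9 CPM, a log2 difference of 1.77 ± 0.18 (adjusted p = 8.14e-07, edgeR), and none fell. Scaling by library size alone, which shifts the median of all genes by -0.34 here, gave 6 V-ATPase genes and 1 cathepsin that fell. With that scaling 3343 of 17799 genes were called, 17.9% of them higher, against 2645 and 50.1% with TMM. Red blood cell markers rose in 10 of 15 and exocrine pancreas markers in 8 of 18 at this step; their part was not tested.

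From 5 dpf to fasted larvae at 6 dpf, 3 of 25 V-ATPase genes fell and none rose, where 10.2% of all genes fell and 7.98% rose. The gene atp6v1g1 fell from 83.3 and 67.1 CPM to 22.2 and 20.9 CPM, a log2 difference of -1.80 ± 0.16 (adjusted p = 1.16e-07, edgeR). The gene atp6v1ab fell further, from 10.5 and 11.01 CPM to 3.58 and 3.58 CPM, a log2 difference of -1.58 ± 0.19. The third was atp6v0a2a, from 12 and 25 counts to 0 and 0, at least 12.6-fold lower against a floor of 3 counts over the fasted group. The fasted GCaMP libraries of the same age held 10 and 9 counts of atp6v0a2a, so its absence was not shared by both fasted groups. Of 14 cathepsins, ctsl.1 rose from 1.21 and 0.682 CPM to 4.32 and 3.48 CPM, a log2 difference of 2.04 ± 0.46, and none fell. The gene ctsz was lower by less than 2-fold, at -0.91 ± 0.11. Without 6 dpf fasted replicate 1 the number of members called was 8 in place of 4. Skin markers rose in 15 of 22 and red blood cell markers fell in 13 of 15 at this step; their part was not tested. From fasted 6 dpf to fasted 7 dpf no V-ATPase gene passed the test, where 2.69% of all genes rose and 4.12% fell, and DESeq2 also called none. At an unadjusted p under 0.05 in edgeR 1 V-ATPase gene was higher and 3 were lower. The share of all genes at that unadjusted limit is not given, so these counts are not read as a difference. Of the cathepsins ctss2.1 rose, from 0.643 and 0.614 CPM to 2.39 and 1.54 CPM, a log2 difference of 1.64 ± 0.48, and that call was lost without either 6 dpf fasted library (1.67 and 1.60) or without 7 dpf fasted replicate 1 (1.28).

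The ventral group was compared with the other fed group at 7 dpf. No member was called by edgeR or by DESeq2, where 0.5% of all genes rose and 0.663% fell. At an unadjusted p under 0.05 in edgeR, atp6v0b was the 1 V-ATPase gene that was higher, and no cathepsin passed. The share of all genes at that unadjusted limit is not given, so this count is not read as a difference. With 2 libraries per group, the absence of a call does not show that the groups are alike. Among genes that set fed from fasted larvae, atp6v1ab had 22.3 and 17.9 CPM in ventral and 21.3 and 23.8 CPM in fed. The gene ctsz had 156 and 155 CPM against 166 and 146 CPM. Genes of few reads lay further apart. The gene atp6v0a2a had 10 and 6 counts in ventral against 22 and 14 in fed, and ctsbb 16 and 34 against 7 and 15. The log2 difference was -0.17 ± 0.17 for atp6v1ab and 0.23 ± 0.14 for ctsla. Macrophage markers summed to 0.00411% and 0.00561% of counts in ventral, between the fasted and the fed libraries.

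The GCaMP line was compared with wild type at 6 dpf, both fasted. Of 25 V-ATPase genes 1 rose and none fell, where 0.714% of all genes rose and 0.247% fell, and of 14 cathepsins none rose or fell. At an unadjusted p under 0.05 in edgeR, 3 V-ATPase genes were higher and 1 lower, and 1 cathepsin was higher and 2 lower. The share of all genes at that unadjusted limit is not given, so these counts are not read as a difference. DESeq2 called no member. The gene called was atp6v0a2a, with 0 counts in both wild-type libraries and 10 and 9 in GCaMP, at least 6.68-fold higher against a floor of 3 counts over the wild-type group (adjusted p = 0.0350, edgeR). In a fit of the 4 libraries alone atp6v0a2a did not pass the filter and was not tested. The call was lost without either wild-type library or GCaMP replicate 1. The gene atp6v1ab had 5.44 and 5.05 CPM in GCaMP against 3.58 and 3.58 CPM in wild type, a log2 difference of 0.55 ± 0.20 that did not pass the test. The gene ctsla differed by 0.01 ± 0.13.

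Over the 8 comparisons, 16 of 25 V-ATPase genes (64.0%) and 11 of 14 cathepsins (78.6%) were called at least once, as were 61.5% of all genes tested. The 9 V-ATPase genes never called were atp6v1c1a, atp6v1d, atp6v1e1a, atp6v1h, which encodes the subunit that couples or stalls the pump, atp6v0a1a, atp6v0b, atp6v0e1, atp6ap1a and atp6ap2. The cathepsins never called were ctsd, ctsa and ctss2.2. Of these, ctsd ranged from 63.2 to 133 CPM over the 16 libraries, with the fed libraries highest at 133 and 115 CPM. The accessory gene atp6ap1a had 4 and 2 counts in fasted and 20 and 18 in fed larvae, with an adjusted p of 0.104 (edgeR), just above the limit.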

How the data were processed

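Library preparation used a directional kit with paired reads, per the labels' protocols and the series design text. The authors deposited raw, unnormalized counts for each gene. Alignment to GRCz11 used HISAT2 and counting used featureCounts, per the submitters' processing notes. No source here gives their versions, the strand setting or the annotation release, so overlapping and antisense genes cannot be told apart. Of values from 1 to 50, even ones made up 70.3% to 77.8% in each library; whether each mate of a pair was counted separately was not tested.

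Differences were computed with edgeR 4.0.16 under R 4.3.3: TMM scaling, edgeR's default filter by group, and a robust quasi-likelihood F test in 1 model of all 16 libraries (8 residual degrees of freedom). Benjamini-Hochberg adjustment ran over 17799 genes in each comparison, and the limits for a call are those of the series design text. The fit was tested on simulated counts. CPM divides counts by the TMM-scaled library size, with normalization factors of 0.837 to 1.30, whereas shares of counts are unscaled. Bounds against 0 counts use a floor of 3 counts over the group at 0 and take the counts of the other group as exact. They cover counting error in the group at 0 only. If mates of a pair were counted separately, that floor would be too low and the bounds too high. Of 47 identifiers, 45 were found among the reference gene names, 16 of them under the same symbol. Symbols are those of the deposited file, and families and roles were assigned by them. No sequences of the members are shown.

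Members and gene lists were chosen with earlier results of these data known. Any member could be named. Values in every library compared are given for up to 4 called members per family and direction with the largest changes, and for abundant ones. Other lists are shown by up to 4 called genes and marker lists by their 2 most abundant genes, counts and sums; genes named outside this rule, to spell out a small count, were chosen after their values were seen. Alternatives were RLE size factors, library size alone, DESeq2 1.42.0, no filter and a stricter one, only the groups compared, a replicate block, halved counts, GCaMP added to the ethanol control, and each library left out.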

Additional observations from a re-analysis of the deposited data

How the results depend on the processing

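The number of members called was 16 for feeding, 13 for ethanol, 3 from 4 to 5 dpf, 4 from 5 to 6 dpf, 1 from 6 to 7 dpf, 16 from 4 to 7 dpf, 0 for ventral, 1 for GCaMP and 12 for ethanol against feeding effects, and no called value changed sign under any alternative run. With library size alone it was 8 from 4 to 5 dpf, 22 for feeding, 19 for ethanol and 9 for the difference; that scaling shifts the median log2 change of all genes by 0.45 for ethanol, 0.19 for feeding, -0.34 from 4 to 5 dpf and -0.33 from 4 to 7 dpf. Under it 15 V-ATPase genes rose with feeding and 16 with ethanol, and no cathepsin fell with feeding. Of 17799 genes tested, it called 6694 with feeding, of which 64.7% were higher, against 6673 and 55.2% with TMM. With ethanol it called 5203, of which 79.99% were higher, against 4089 and 51.6%. From 4 to 5 dpf it called 3343, of which 17.9% were higher, against 2645 and 50.1%. From 4 to 7 dpf it called 7144, of which 32.0% were higher, against 6953 and 48.0%. For GCaMP the number of members called was 0 with DESeq2 and with only the groups compared, a fit in which atp6v0a2a was not tested. With each library left out, the number ran from 15 to 18 for feeding, 9 to 12 for ethanol, 3 to 4 from 4 to 5 dpf, 5 to 8 from 5 to 6 dpf, 0 to 1 from 6 to 7 dpf, 12 to 15 from 4 to 7 dpf, 0 to 0 for ventral, 0 to 1 for GCaMP and 9 to 11 for the difference; a lone library was then assumed to vary like the other groups. The cause of these changes was not tested. Deviations of same-numbered libraries correlated at -0.096 to 0.111 in the 8 comparisons and at -0.240 to 0.181 over all 28 pairs of groups, of which 2 were over 0.1, so the numbers were not taken as pairs; with the replicate block the number was 17 for feeding, which adds atp6ap1a, and equal to the unblocked number in each other comparison. With GCaMP added to its control, ethanol gave 9, where 4297 of 17799 genes were called. Depth limits the genes under 10 counts per library, whose standard errors reached 1 or more on the log2 scale.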
